A study of Mus musculus with 32 samples.

Results

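The comparison is between 28 h and 16 h in HL-1 cells, a mouse cell line known to derive from an atrial tumour, that were kept in conditioned medium (CM) from AML12 cells, a mouse liver cell line. The 8 libraries were taken by their column labels, 4 at 28 h and 4 at 16 h, out of 32 libraries in the series. Both of these groups received AML12 medium taken with the synchronization that the labels abbreviate as DEX, and by their labels they differ in time. HL-1 cells in AML12 control medium, which had no DEX synchronization, were sampled at the same times with 4 libraries at 28 h and 4 at 16 h, and stand beside the CM cells as the same time change in the other medium. All 4 groups thus share the cell line and the AML12 origin of the medium. The event from which the hours were counted is not given in the sources used here, and the labels do not say whether replicates were separate cultures, so p-values measure only the spread between these libraries, which may be technical. The libraries were made from total RNA.

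The circadian clock of mammalian cells is a transcription loop. BMAL1, encoded by Arntl, pairs with CLOCK or NPAS2 on E-boxes and raises the Per, Cry, Nr1d and PAR bZIP genes, whose products close the loop: PER and CRY proteins repress the activators, REV-ERB proteins repress Arntl, and ROR proteins raise it. In heart muscle this clock is known to time metabolism and ion channel genes. The response to low oxygen is another such programme, in which HIF factors raise glycolytic enzymes, prolyl hydroxylases and angiogenic factors.

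Total counts per library, in M (mega), were 18.2 ± 0.753 M in CM at 28 h and 18.6 ± 0.606 M in CM at 16 h (mean ± SD, n = 4 each), and 16.6 ± 1.00 M and 16.3 ± 0.722 M in control medium at 28 h and 16 h. Levels are given in CPM, counts scaled to a common total on TMM-scaled library sizes, and changes as log2 fold change ± SE, 28 h over 16 h, from edgeR's quasi-likelihood test on all 16 HL-1 libraries. A gene is called when its p, adjusted by Benjamini and Hochberg over the 14450 genes tested, is under 0.05. Of the 30 sarcomere and natriuretic peptide genes that mark heart muscle, 12 were expressed well enough to be tested. Over all 16 libraries together, Myh6 had 4 counts, Nppa 5 counts and Actc1 5 counts, and Myl7 and Mybpc3 had 0, so the defining atrial contractile genes were absent or nearly absent. These markers go against a heart muscle identity of the cells, which are called HL-1 here as labelled. Des, Tpm1 and Tnnt2 were present, as was the heart transcription factor Gata4. Of 13 immune markers 2 were testable, and the hepatocyte genes Alb, Ttr and Fga had 0 counts in every HL-1 library.

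Most of the transcriptome differed between the times. In CM cells 9453 of 14450 genes were called (65.4%), 4706 of them higher at 28 h (32.6%) and 4747 lower (32.9%). Differences of at least 2-fold were fewer and mostly rises, with 1107 genes higher (7.66%) and 390 lower (2.7%), and 215 genes rose but 15 fell by 4-fold or more. The 4 libraries at 28 h lay all above the 4 at 16 h for 4166 genes (28.8%) and all below for 4251 genes (29.4%). The genes that rose at least 2-fold were of low level, with a median of 3.27 CPM at 28 h and 1.14 CPM at 16 h, whereas those that fell at least 2-fold had a median of 6.67 CPM at 28 h and 16.3 CPM at 16 h. Protein-coding genes were 74.0% of the first set and 84.1% of the second, beside 83.8% of all genes tested. In these bulk samples fewer cells of a kind and less RNA per cell cannot be told apart.

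Cells in control medium, with no library in common, went through a like change. There 9071 genes were called (62.8%), 4550 of them higher at 28 h (31.5%) and 4521 lower (31.3%). In both media 8177 genes were called, which is 86.5% of the CM calls and 90.1% of the control calls. Of these, 8172 had the same direction and 5 the opposite one. Across the 14450 genes the log2 changes of the 2 media had a Pearson r of 0.916 and a Spearman rho of 0.912, given as a description, since genes are not independent replicates. The test of the difference itself, CM time change minus control time change, called 40 genes (0.277%), 15 with a difference above 0 (0.104%) and 25 below 0 (0.173%). Of these 40 genes, 8 were among the 23 core clock genes tested, and the clock is therefore described first.

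**Figure D1:**
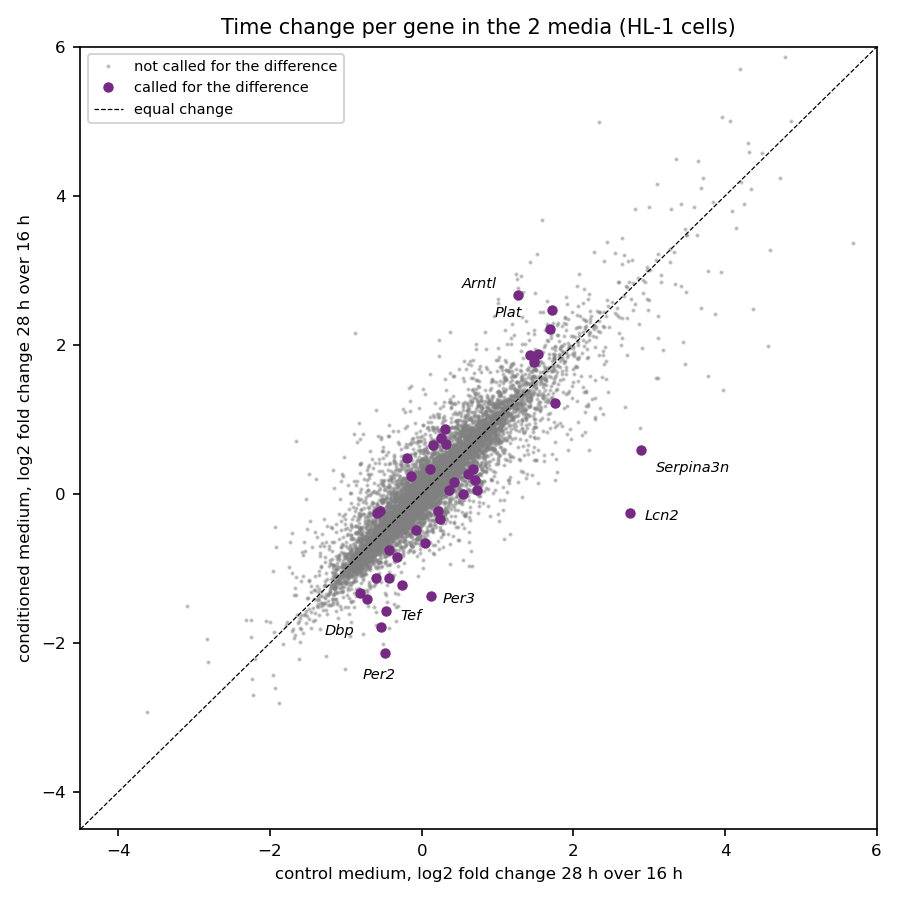
Each point is a gene, with its log2 change in conditioned medium (28 h over 16 h) on the vertical axis and its change in control medium on the horizontal axis; purple points are the 40 genes called for the difference between the media, and 5 genes lie past the axes. Most genes follow the dashed line of equal change, while Per2, Per3, Dbp, Tef, Lcn2 and Serpina3n lie below it and Arntl and Plat above it.

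Promoter sequences of 4 of the clock genes whose time change differed between the media are shown because they hold the letters through which the loop is known to act. They are RefSeq promoters on GRCm38.p6, 250 bases before to 50 bases after a listed start, read 5′ to 3′ on the gene's strand. Capitals mark an E-box (CACGTG) in Tef and Cry1, a D-box (TTATGTAA) in Per3 and the ROR and REV-ERB core (AGGTCA) in Arntl.
Arntl: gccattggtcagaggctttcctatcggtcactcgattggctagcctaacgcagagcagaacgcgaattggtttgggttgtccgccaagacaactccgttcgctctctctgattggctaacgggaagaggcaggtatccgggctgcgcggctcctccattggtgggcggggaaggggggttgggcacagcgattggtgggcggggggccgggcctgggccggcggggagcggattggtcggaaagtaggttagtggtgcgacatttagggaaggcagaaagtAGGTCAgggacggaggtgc
Per3: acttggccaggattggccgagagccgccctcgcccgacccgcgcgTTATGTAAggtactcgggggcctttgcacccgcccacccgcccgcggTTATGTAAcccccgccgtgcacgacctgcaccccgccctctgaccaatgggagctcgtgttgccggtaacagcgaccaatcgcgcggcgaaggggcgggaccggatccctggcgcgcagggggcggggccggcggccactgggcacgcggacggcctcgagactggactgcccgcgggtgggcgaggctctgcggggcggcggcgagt
Tef: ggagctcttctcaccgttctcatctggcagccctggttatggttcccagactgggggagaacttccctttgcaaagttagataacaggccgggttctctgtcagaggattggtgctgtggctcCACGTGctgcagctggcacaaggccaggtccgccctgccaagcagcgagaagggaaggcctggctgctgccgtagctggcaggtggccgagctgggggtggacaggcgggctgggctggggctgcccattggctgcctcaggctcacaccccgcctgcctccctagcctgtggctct
Cry1: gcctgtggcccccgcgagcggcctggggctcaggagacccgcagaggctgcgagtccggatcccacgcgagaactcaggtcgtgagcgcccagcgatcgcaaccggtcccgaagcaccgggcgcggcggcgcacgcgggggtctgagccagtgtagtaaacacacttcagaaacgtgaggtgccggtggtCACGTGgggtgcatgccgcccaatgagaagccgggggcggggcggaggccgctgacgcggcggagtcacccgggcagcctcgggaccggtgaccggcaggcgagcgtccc
The Arntl window lies at chr7:113207261-113207560 on the plus strand and is 1 of 2 listed starts, the Per3 window at chr4:151044616-151044915 on the minus strand, the Tef window at chr15:81802423-81802722 on the plus strand, 1 of 2 listed starts, and the Cry1 window at chr10:85185005-85185304 on the minus strand. The Per3 window holds the D-box 2 times, at bases 46 and 93 of the window. The E-box starts at base 124 in Tef and at base 191 in Cry1, and the AGGTCA of Arntl starts at base 282, after the start site. Searched on both strands, the E-box is found in 7.15% of the 32851 listed mouse promoters, the D-box in 0.938% and AGGTCA in 16.3%. Of the 8 clock genes that differed between the media, 7 have a listed promoter, of which 2 hold an E-box, 1 a D-box and 2 the AGGTCA core. A match describes the letters in the window and is not a measured site.

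The activator side of the clock was higher at 28 h. Arntl (chr7:113207465-113314126, GRCm38, plus strand) had 49.2, 50.4, 53.2 and 50.8 CPM in CM at 28 h, against 8.41, 7.90, 7.41 and 8.38 CPM in CM at 16 h. The groups did not overlap, and the level was 6.34-fold higher at 28 h (log2 2.66 ± 0.060, edgeR adjusted p = 7.56e-22). In control medium it had 42.5, 41.9, 43.3 and 43.2 CPM at 28 h, against 17.0, 17.9, 17.2 and 18.6 CPM at 16 h, a log2 change of 1.28 ± 0.055. Both CM groups thus lay outside the control range, above it at 28 h and below it at 16 h, and the CM change was larger by 1.39 ± 0.083 (adjusted p = 4.90e-11). Npas2, the CLOCK paralog, had 0.912, 0.838, 1.23 and 0.971 CPM at 28 h, against 0.0516, 0.163, 0.160 and 0.281 CPM at 16 h, a rise of 2.56 ± 0.40 at a low level. Its difference from the control change, 1.56 ± 0.65, did not pass the test (adjusted p = 0.607). Clock itself was 156 ± 8.94 CPM at 28 h and 155 ± 10.6 CPM at 16 h (SD, n = 4 each), with overlapping groups and a log2 change of 0.0021 ± 0.045.

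The Period and cryptochrome repressors went the other way. Per2 (chr1:91415982-91459324, minus strand) had 10.4, 11.5, 10.7 and 11.4 CPM in CM at 28 h, against 45.2, 47.9, 50.9 and 50.3 CPM at 16 h, a log2 change of -2.14 ± 0.076 (adjusted p = 4.72e-18). In control medium Per2 had 18.8, 21.3, 22.5 and 20.2 CPM at 28 h, against 24.7, 31.5, 29.0 and 30.5 CPM at 16 h. The CM libraries were below all controls at 28 h and above all controls at 16 h, and the changes differed by -1.66 ± 0.11 (adjusted p = 1.51e-10). Per3 had 13.3, 15.9, 17.3 and 16.2 CPM in CM at 28 h, against 40.0, 37.4, 43.2 and 41.4 CPM at 16 h (log2 -1.37 ± 0.071). In control medium it had 23.3, 22.8, 25.4 and 25.2 CPM at 28 h, against 21.3, 23.0, 21.2 and 23.3 CPM at 16 h, a change of 0.12 ± 0.072 that did not pass the test (adjusted p = 0.14). The difference between the media was -1.49 ± 0.10 (adjusted p = 4.18e-10). Cry1 had 14.6, 15.7, 13.1 and 12.8 CPM in CM at 28 h, against 33.2, 33.4, 31.3 and 32.8 CPM at 16 h, and its log2 change was -1.22 ± 0.073 in CM and -0.27 ± 0.072 in control medium, a difference of -0.95 ± 0.10 (adjusted p = 4.52e-06).

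The other members of these families changed less. Per1 had overlapping groups in CM, with 32.5 ± 3.64 CPM at 28 h and 31.3 ± 2.91 CPM at 16 h (log2 0.057 ± 0.085, adjusted p = 0.579), and 34.1 ± 3.38 CPM and 23.6 ± 2.43 CPM in control medium, where it was called higher at 28 h. The difference of the Per1 changes, -0.48 ± 0.12, was not called (adjusted p = 0.15) but passed with DESeq2 (adjusted p = 0.0429), with a replicate block (0.0404), without the low-count filter (0.000379) and without CM 28 h replicate 4 (0.0494). Cry2 fell by 0.34 ± 0.090 to 11.8 ± 1.08 CPM in CM at 28 h, against 15.0 ± 1.49 CPM in CM at 16 h (adjusted p = 0.00176). Its difference from the control change, -0.58 ± 0.13, was close to the threshold (adjusted p = 0.0447), and leaving out 1 library ended this call in 13 of 16 cases, with adjusted p between 0.0188 and 0.168. Ciart, which encodes the repressor CHRONO, was called at -0.35 ± 0.11 with overlapping groups. Its difference from the control change, -0.62 ± 0.17, was not called (adjusted p = 0.162) but passed without the low-count filter (0.0156) or without control 28 h replicate 2 (0.0446). Csnk1e, a kinase that marks PER proteins for decay, rose by 0.28 ± 0.041. Its relative Csnk1d was called at 0.086 ± 0.037 (adjusted p = 0.0413) with overlapping groups, and this call was lost without replicate 1 or 3 of CM 16 h or replicate 2, 3 or 4 of CM 28 h.

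Among the factors that act on the Arntl promoter, the REV-ERB genes fell and Rora rose. Nr1d2 (REV-ERB beta) had 50.5, 49.2, 43.4 and 47.8 CPM in CM at 28 h, against 128, 122, 134 and 125 CPM at 16 h (log2 -1.41 ± 0.049), and its change differed from that in control medium by -0.69 ± 0.070 (adjusted p = 1.38e-06). Nr1d1 (REV-ERB alpha) fell by less, 0.36 ± 0.065, to 30.3 ± 1.57 CPM at 28 h, against 39.0 ± 2.35 CPM at 16 h. The groups of both genes did not overlap. Rora had 2.34, 3.09, 2.75 and 3.56 CPM at 28 h, against 0.516, 0.599, 0.266 and 0.394 CPM at 16 h (log2 2.71 ± 0.25), at a low level with no overlap between the groups. Rorb, at 27.7 ± 1.92 CPM at 28 h and 27.4 ± 2.67 CPM at 16 h, had overlapping groups (0.019 ± 0.073, adjusted p = 0.828).

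The D-box factors, which carry the rhythm to output genes, were lower at 28 h, and their repressor was higher. Tef had 63.9, 63.7, 59.2 and 61.8 CPM in CM at 28 h, against 182, 184, 186 and 188 CPM at 16 h (log2 -1.57 ± 0.039, adjusted p = 6.21e-21), and 85.0, 80.0, 87.9 and 87.7 CPM in control medium at 28 h, against 115, 122, 115 and 119 CPM at 16 h. Its difference between the media, -1.11 ± 0.056, had the smallest adjusted p of all genes for that test, 1.66e-12. Dbp had 5.70, 5.66, 4.82 and 8.14 CPM in CM at 28 h, against 17.4, 26.5, 17.5 and 23.1 CPM at 16 h (log2 -1.79 ± 0.15), and differed from its control change by -1.25 ± 0.22 (adjusted p = 0.00399). Hlf, at 0.547 ± 0.319 CPM at 28 h and 2.08 ± 0.410 CPM at 16 h, fell by 1.91 ± 0.35, without a called difference between the media (adjusted p = 0.76). Nfil3, which represses through the same D-box, had 43.3, 40.2, 42.5 and 38.6 CPM at 28 h, against 13.6, 13.6, 16.2 and 14.9 CPM at 16 h (log2 1.50 ± 0.065). Bhlhe40, an E-box repressor that is also raised by low oxygen, had 288, 266, 310.4 and 284 CPM at 28 h, against 92.6, 83.3, 95.8 and 93.9 CPM at 16 h (log2 1.65 ± 0.053). Its paralog Bhlhe41 rose by 0.42 ± 0.068. The Bhlhe41 difference between the media, -0.44 ± 0.10, was not called (adjusted p = 0.0519) but passed with DESeq2 (0.0126), a replicate block (0.0263) or no low-count filter (0.000713), and without control 16 h replicate 1 (0.0181) or control 28 h replicate 2 (0.0278).

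Of the 23 clock genes 9 were called higher and 10 lower in CM cells, beside 32.6% and 32.9% of all genes tested. Rises of at least 2-fold were 6 and such falls 7, beside 7.66% and 2.7% of all genes tested. The control calls were 11 higher and 8 lower, beside 31.5% and 31.3% of all genes tested there, with 5 rises and 0 falls of at least 2-fold. Nfil3 and Bhlhe40 changed about as much in control medium, by 1.26 ± 0.065 and 1.85 ± 0.054, and no difference between the media was called for them (adjusted p = 0.551 and 0.502). For the 8 genes that were called, the CM change was the larger one in size for Arntl, Per2, Per3, Cry1, Cry2, Nr1d2, Dbp and Tef alike. Wee1, a kinase that holds back mitosis and is known as a clock target in mouse liver, was 34.1 ± 2.23 CPM in CM at 28 h and 74.4 ± 4.70 CPM in CM at 16 h (SD, n = 4 each), and differed from its control change by -0.52 ± 0.085 (adjusted p = 0.00205).

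**Figure D2:**
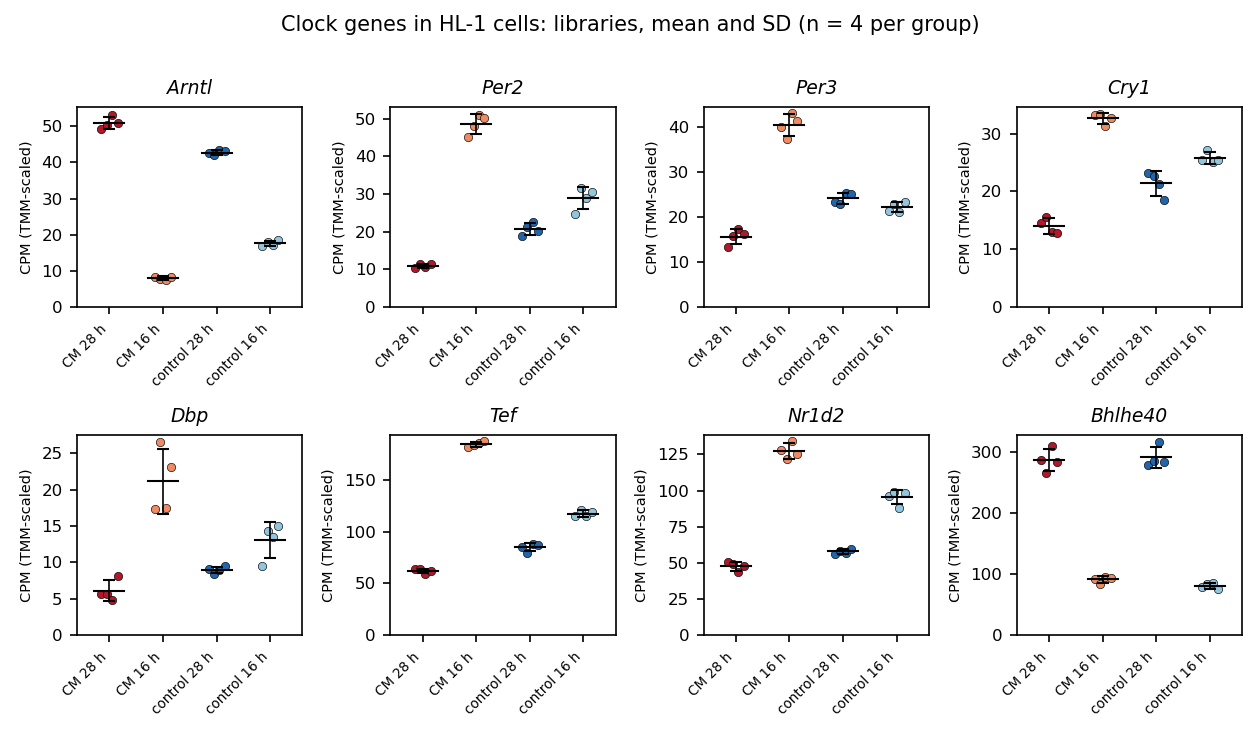
CPM of 8 clock genes in every HL-1 library (dots), with mean and SD (bars, n = 4), in CM at 28 h, CM at 16 h, control medium at 28 h and control medium at 16 h; each vertical axis starts at 0. For Arntl, Per2, Per3, Cry1, Dbp, Tef and Nr1d2 the 2 CM groups stand further apart than the 2 control groups, and for Bhlhe40 they do not.

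Outside the clock, the called differences below 0 included acute-phase and chemokine genes, and those above 0 included plasminogen activator and matrix genes. Lcn2, an iron-carrying acute-phase protein, had 1.42, 1.41, 1.40 and 2.10 CPM in CM at 28 h, against 0.981, 2.23, 2.29 and 2.08 CPM at 16 h. In control medium it had 1.35, 1.50, 1.33 and 1.32 CPM at 28 h, against 0.228, 0, 0.452 and 0.125 CPM at 16 h. The CM groups overlapped while the control groups did not, and the difference was -2.99 ± 0.53 (adjusted p = 0.00464). Serpina3n, an acute-phase protease inhibitor, was 2.49 ± 0.308 CPM in CM at 28 h and 1.64 ± 0.193 CPM in CM at 16 h, and 1.75 ± 0.350 CPM and 0.234 ± 0.176 CPM in control medium, a difference of -2.29 ± 0.42 (adjusted p = 0.00728). Both genes were at low levels, and DESeq2 gave no adjusted p for their differences.

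The chemokine genes Ccl7, Ccl2 and Cxcl1 and the prostaglandin synthase gene Ptgs2 also had smaller or lower changes in CM, and were named after their values were seen, like Wee1, Coq10b and Pdxk, except for Cxcl1, which the rule for named genes gave. Ccl7 fell by 0.66 ± 0.081 in CM and was 0.041 ± 0.080 in control medium, a difference of -0.70 ± 0.11 (adjusted p = 0.00191). Ccl2 had overlapping CM groups, 94.8 ± 14.7 CPM at 28 h and 91.5 ± 5.34 CPM at 16 h, but 147 ± 7.01 CPM and 88.4 ± 9.41 CPM in control medium (difference -0.68 ± 0.11). Cxcl1 rose by 1.22 ± 0.053 in CM and by 1.75 ± 0.054 in control medium, and Ptgs2 by 0.19 ± 0.048 and 0.70 ± 0.048. Coq10b and Pdxk, which encode a coenzyme Q binding protein and pyridoxal kinase, fell by 1.12 ± 0.072 and 1.33 ± 0.069 in CM and differed from their control changes by -0.70 ± 0.10 and -0.51 ± 0.10. The Pdxk difference was lost without control 16 h replicate 2, CM 16 h replicate 3 or 4, or control 28 h replicate 1 or 3, with adjusted p up to 0.0571.

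On the other side, Plat, the tissue plasminogen activator gene, had 73.6, 72.2, 83.1 and 74.0 CPM in CM at 28 h, against 12.6, 13.7, 14.4 and 13.7 CPM at 16 h (log2 2.47 ± 0.067). This exceeded its control change of 1.72 ± 0.067 by 0.76 ± 0.10 (adjusted p = 6.13e-05). Plau, which encodes urokinase, rose by 0.66 ± 0.052 in CM, 0.50 ± 0.074 more than in control medium. The matrix genes Spon2, Thbs2 and Lox exceeded their control changes by 0.52 ± 0.086, 0.43 ± 0.053 and 0.33 ± 0.049. Dusp27, of the dual-specificity phosphatase family by symbol, and Tinagl1, a basement membrane protein gene, exceeded theirs by 0.56 ± 0.12 and 0.66 ± 0.13. Without 1 library the Dusp27 call was lost in 7 of 16 cases (adjusted p up to 0.0753) and the Tinagl1 call without control 16 h replicate 4 or control 28 h replicate 1 (adjusted p up to 0.0607).

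The largest rises in CM cells were from genes that were nearly silent at 16 h. Nos2, the inducible nitric oxide synthase gene (chr11:78920787-78960254, plus strand), had 49.3, 44.7, 48.4 and 51.7 CPM at 28 h, against 0, 0.0545, 0.107 and 0 CPM at 16 h. These are 3541 counts over the 4 libraries at 28 h and 3 counts at 16 h, a ratio of 1201 with an exact 95% interval of 411 to 5825 that covers counting error only. Aire, a regulator of gene expression known from thymic epithelium, had 219 counts at 28 h and 2 at 16 h (ratio 111, interval 30.5 to 926). The chemokine gene Ccl3 had 78 counts at 28 h and 1 at 16 h (ratio 79.3, interval 13.8 to 3174), and Wt1, a transcription factor gene, had 79 and 2 (ratio 40.2, interval 10.8 to 338). In control medium the fitted log2 changes of Nos2 and Ccl3 were 11.1 and 4.19, beside 9.99 and 5.70 in CM. No difference between the media was called for Nos2, Aire, Ccl3 or Wt1. Smtnl2, an actin-binding smoothelin-like gene, was the 1 called gene with 0 counts in all 4 CM 16 h libraries, beside 50 counts at 28 h, and was named for this after its values were seen.

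Other large rises had between 12 counts (Adm) and 66 counts (Selenbp1) over the 4 libraries at 16 h. Adm, which encodes the vasodilator peptide adrenomedullin, had 6.84, 4.56, 5.10 and 5.18 CPM at 28 h, against 0.155, 0.218, 0.107 and 0.169 CPM at 16 h (log2 5.00 ± 0.30). Selenbp1, a selenium-binding methanethiol oxidase gene, had 29.4, 27.1, 28.4 and 29.9 CPM at 28 h, against 1.19, 0.490, 1.07 and 0.787 CPM at 16 h (log2 5.00 ± 0.15), and reads shared with its near-identical neighbour Selenbp2 may be split between them. Cd33, a sialic acid receptor gene, rose by 4.71 ± 0.22, Car12, a membrane carbonic anhydrase gene, by 4.59 ± 0.18, and Acap1, a GTPase-activating protein gene, by 4.58 ± 0.31. Epm2a, the glycogen phosphatase laforin, and Prss35 rose by 4.50 ± 0.27 and 4.47 ± 0.23. The rule that named these genes took only genes whose groups do not overlap, so their separation is part of the choice. In control medium the same genes changed by between 3.35 (Epm2a) and 4.87 (Selenbp1), and no difference between the media was called for them.

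Among called genes with separate groups and at least 1 CPM, the largest falls were smaller in size than the largest rises. The glutathione transferase gene Gsta1 had 0.798, 0.367, 0.168 and 0.216 CPM at 28 h, against 2.17, 3.70, 2.98 and 3.09 CPM at 16 h (log2 -2.93 ± 0.30), and its near-identical paralog Gsta2 fell by 2.22 ± 0.31, with reads that may be split between the pair. Pla2g4c, a phospholipase gene, fell by 2.61 ± 0.21, Lsmem2 fell by 2.43 ± 0.37, Ccnb1ip1 fell by 2.22 ± 0.33 and Egflam, a matrix protein gene, fell by 2.17 ± 0.36. Hsph1, a large heat shock chaperone gene, had 70.3, 87.4, 61.7 and 65.2 CPM at 28 h, against 286, 291, 279.9 and 290.3 CPM at 16 h (log2 -2.01 ± 0.066). Rrp9, whose product belongs to the U3 particle that processes ribosomal RNA, had 8.78, 10.4, 8.41 and 10.9 CPM at 28 h, against 32.8, 41.6, 34.8 and 37.8 CPM at 16 h (log2 -1.93 ± 0.11). In control medium the log2 change of Gsta1 was -3.62, and its difference between the media was not called.

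The 6 smallest p-values of the comparison belonged to Ndrg1, Ero1a, Enpp2, Cp, Lox and Pdk1. Ndrg1, a hypoxia-raised stress gene (chr15:66929318-66969640, minus strand), had 769.7, 702, 738 and 723 CPM at 28 h, against 104, 94.5, 105 and 104 CPM at 16 h. It was 7.19-fold higher (log2 2.85 ± 0.047, adjusted p = 4.31e-24) with no overlap between the groups. Ero1a, the oxidase that forms disulphides in the endoplasmic reticulum, had 1625, 1424, 1693 and 1506 CPM at 28 h, against 199, 174, 203 and 199 CPM at 16 h (log2 3.01 ± 0.054). Pdk1, the kinase that shuts off pyruvate dehydrogenase, had 477, 447, 461 and 467 CPM at 28 h, against 135, 124, 131 and 127 CPM at 16 h (log2 1.84 ± 0.035). Their groups do not overlap, as the same rule requires. Enpp2 (autotaxin) and Cp (ceruloplasmin), both secreted, rose by 2.77 ± 0.050 and 2.11 ± 0.038.

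All 30 glycolysis and hypoxia genes that were listed rose in CM cells, beside 32.6% of all genes tested, and 21 of them rose at least 2-fold. Their median change was 1.29, beside -0.0045 over all genes tested, and 1.33 in control medium, where all 30 were also called higher. No member had a called difference between the media. Along the pathway, the glucose carrier Slc2a1 rose by 1.40, hexokinase Hk2 by 1.38, phosphofructokinase Pfkp by 1.56, the aldolase Aldoc by 1.85, Pgk1 by 1.12 and Ldha by 0.72 on the log2 scale. Among oxygen sensors and regulators, the prolyl hydroxylase Egln1 rose by 1.57 and Egln3 by 1.79. The secreted angiogenic factor Vegfa rose by 1.34 and the membrane carbonic anhydrase Car9 by 3.55. Pkm, at 0.44, and Pfkfb4, at 0.34, rose least. Bnip3, a mitophagy receptor gene, had 308, 273, 288 and 279.9 CPM at 28 h, against 55.5, 47.8, 58.5 and 50.3 CPM at 16 h (log2 2.44 ± 0.054).

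The Bnip3 promoter is shown because it holds several copies of the core that HIF factors are known to bind, ACGTG or GCGTG, on either strand (capitals, where CACGT and CACGC are the reverse strand and CACGTG overlaps the E-box). It is RefSeq's on GRCm38.p6, at chr7:138909457-138909756 on the minus strand.
Bnip3: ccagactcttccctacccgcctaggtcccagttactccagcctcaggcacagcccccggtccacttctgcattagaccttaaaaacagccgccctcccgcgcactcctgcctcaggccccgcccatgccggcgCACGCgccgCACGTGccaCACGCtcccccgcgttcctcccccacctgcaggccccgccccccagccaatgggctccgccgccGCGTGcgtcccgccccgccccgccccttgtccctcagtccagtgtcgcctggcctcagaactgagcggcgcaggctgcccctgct
The core starts at bases 134, 143, 144, 152 and 216 of the 300. It occurs in 27 of the 29 genes of the list that have a listed promoter and in 33 of their 40 promoters, but also in 43.8% of all 32851 promoters and in 23 of the 27 promoters of the core clock genes. The list thus held the core more often than all promoters did, but about as often as the core clock genes. These counts describe letters and are not measured sites.

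Genes of S phase and mitosis were lower at 28 h, with 1 exception. Of 32 S phase genes 31 fell, beside 32.9% of all genes, 13 of them at least 2-fold, with a median of -0.99. Mcm2, a subunit of the replicative helicase, had 115, 125, 97.9 and 109 CPM at 28 h, against 276, 288, 272 and 283 CPM at 16 h (log2 -1.33 ± 0.051). The helicase genes Mcm3, Mcm4 and Mcm5 fell by 1.20 ± 0.047, 1.13 ± 0.049 and 1.31 ± 0.062, and the licensing factors Cdt1 and Cdc6 had log2 changes of -1.46 and -1.43. Uhrf1, which maintains DNA methylation at the fork, fell by 1.04 ± 0.042 and the thymidine kinase gene Tk1 fell by 0.94 ± 0.048. E2f1 was the exception, at -0.10 ± 0.054 with overlapping groups (adjusted p = 0.111). Without CM 28 h replicate 1 it was called at -0.13 (adjusted p = 0.0462). In control medium 31 of 32 were also called lower, with a median of -0.76, and all 32 differences between the media lay below 0 with a median of -0.20, beside 55.4% of all genes below 0. None was called, but without CM 28 h replicate 2 the differences of Mcm3, Mcm4 and Uhrf1 passed (adjusted p = 0.0432, 0.00357 and 0.0409), and that of Uhrf1 also with DESeq2 (0.0252). Without the low-count filter those of Mcm4 (0.0372), Mcm5 (0.00708) and Uhrf1 (0.0118) passed.

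All 31 G2 and mitosis genes fell as well, none of them by 2-fold, with a median of -0.60 in CM and -0.66 in control medium. The mitotic kinase gene Aurka had 88.9, 95.2, 88.1 and 84.8 CPM at 28 h, against 174, 175, 174 and 169 CPM at 16 h (log2 -0.96 ± 0.040). Ccna2 and Ccnb1, the S phase and mitotic cyclins, fell by 0.77 ± 0.036 and 0.75 ± 0.042, and Foxm1, the factor that drives mitotic genes, fell by 0.80 ± 0.040. Among the cyclins and inhibitors, the G1 cyclin Ccnd1 fell by 1.01 ± 0.042, to 259.6 ± 9.17 CPM at 28 h, against 524 ± 14.4 CPM at 16 h. The inhibitor Cdkn1a (p21) rose by 0.92 ± 0.038, to 239 ± 9.17 CPM at 28 h, against 127 ± 3.56 CPM at 16 h. Ccng2, a cyclin of resting cells, had 262, 246, 261 and 270.2 CPM at 28 h, against 53.8, 46.6, 54.2 and 53.5 CPM at 16 h (log2 2.32 ± 0.061). Btg1, an antiproliferative gene, rose by 0.94 ± 0.053. Of the 23 p53 target genes tested 8 rose and 10 fell, near the 32.6% and 32.9% of all genes tested.

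The machinery that makes ribosomes fell together. All 30 ribosome biogenesis genes were called lower, 19 of them at least 2-fold, beside 32.9% and 2.7% of all genes, and their median change was -1.15 in CM and -1.01 in control medium. Nop56, a core protein of the snoRNPs that methylate ribosomal RNA, had 112, 130.2, 107 and 101 CPM at 28 h, against 324, 317, 327 and 313 CPM at 16 h (log2 -1.51 ± 0.053). Dkc1 and Nhp2, of the particles that pseudouridylate it, fell by 1.66 ± 0.053 and 1.68 ± 0.053, and the nucleolar genes Nolc1 and Utp20 fell by 1.46 ± 0.046 and 1.25 ± 0.043. The mildest member was Polr1c, a subunit of RNA polymerases I and III, at -0.26. Of 35 cytosolic ribosomal protein genes 32 fell, but by little, with a median of -0.24 and none by 2-fold. Rpl27, with one of the larger falls, was 375 ± 10.2 CPM at 28 h and 509 ± 10.5 CPM at 16 h (-0.44 ± 0.037).

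Chaperones of the cytosol and mitochondria mostly fell. Of 24 heat shock genes 18 fell, 6 of them at least 2-fold, and 3 rose, beside 32.9%, 2.7% and 32.6% of all genes tested. Hspa8, the constitutive HSP70, had 1122, 1166, 1005 and 987 CPM at 28 h, against 2146, 2122, 2181 and 2155 CPM at 16 h (log2 -1.01 ± 0.042). The mitochondrial pair Hspd1 and Hspe1 fell by 1.18 ± 0.046 and 1.03 ± 0.049, and the HSP70 partner Dnaja1 fell by 0.98 ± 0.043. Hspb1 and Cryab, small heat shock proteins, and Hspa4l were the 3 that rose, by 0.46, 0.29 and 0.23. The endoplasmic reticulum chaperone list was mixed, with 13 of 23 genes higher and 7 lower, and the stress factor gene Xbp1 rose by 0.81 ± 0.046. In the integrated stress and amino acid list 10 of 30 genes rose, near the share of all genes, and 15 fell. There the serine synthesis enzymes Phgdh and Shmt2 fell by 0.87 ± 0.040 and 0.95 ± 0.047, while Nupr1, Ddit4 and Vldlr rose by 1.48 ± 0.049, 1.15 ± 0.086 and 1.11 ± 0.053. The cold-inducible RNA-binding genes went apart, with log2 changes of 0.86 ± 0.062 for Cirbp and -0.65 ± 0.041 for Rbm3.

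**Figure D3:**
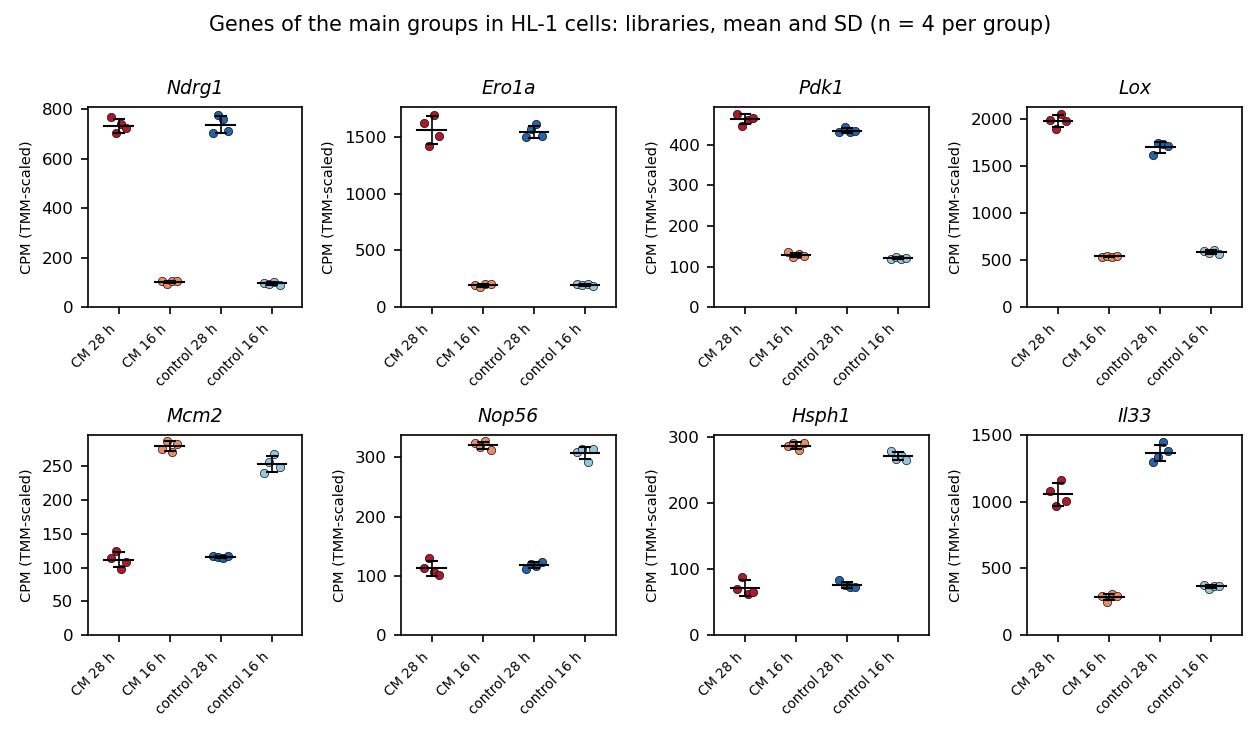
CPM of 8 genes of the main groups in every HL-1 library (dots), with mean and SD (bars, n = 4), in CM at 28 h, CM at 16 h, control medium at 28 h and control medium at 16 h; each vertical axis starts at 0. Ndrg1, Ero1a, Pdk1, Lox and Il33 are higher at 28 h and Mcm2, Nop56 and Hsph1 lower, with no overlap between the times in CM.

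Matrix genes rose. Of 28 extracellular matrix genes 26 were called higher, beside 32.6% of all genes tested, 9 of them at least 2-fold, and 1, Spp1 (osteopontin, -0.13), lower, with a median of 0.70. Lox, the copper enzyme that cross-links collagen and elastin, had 1979.9, 1888, 2051 and 1978 CPM at 28 h, against 535, 546, 534 and 539.5 CPM at 16 h (log2 1.87 ± 0.036). Its relative Loxl2 rose by 1.98 ± 0.076. Thbs2, a matricellular protein gene, had 1189.5, 1156, 1266 and 1208 CPM at 28 h, against 319, 318, 346 and 342 CPM at 16 h (log2 1.86 ± 0.039). Tnc (tenascin C), Col6a1 and Col8a1 rose by 1.68 ± 0.052, 1.66 ± 0.057 and 1.04 ± 0.039, and the fibrillar collagen genes Col1a1 and Col3a1 by 0.94 and 0.67. No 28 h library of Lox, Thbs2 or Loxl2 overlapped a 16 h library. In control medium 26 of the 28 matrix genes were also called higher and 1 lower, with a median of 0.66. The fibroblast and mesenchymal markers, which share some collagen genes with this list, summed to 9729 to 10774 CPM in CM at 28 h and 8543 to 9187 CPM in CM at 16 h. Of these 15 markers 11 were tested, 8 rose and 1 fell, among them Dcn (0.78), Col3a1 (0.67), Pdgfra (0.57) and Pdgfrb (-0.42). Tcf21 had 0 counts, and Thy1, Lum and Twist1 had at most 4 over all 16 libraries. The part of such cells in the matrix rise was not tested.

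Of 18 matrix protease and inhibitor genes 12 rose and 4 fell, beside 32.6% higher and 32.9% lower over all genes tested. The proteases Adamts4 and Mmp19 rose by 2.34 ± 0.11 and 1.19 ± 0.065. In the TGF-beta and BMP list 16 of 23 genes rose and 4 fell. In the YAP and TEAD list 8 of 18 rose and 5 fell, not far from those shares, with its classical members on opposite sides: Ccn1 rose by 0.72 ± 0.059 and Ccn2 fell by 0.98 ± 0.094. The SRF and actin list had 4 of 20 genes higher and 11 lower.

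Many inflammatory genes rose. Il33, an alarmin of the interleukin-1 family, had 1082, 971, 1165 and 1003 CPM at 28 h, against 296, 250.5, 305 and 291 CPM at 16 h (log2 1.89 ± 0.057). The neutrophil chemokine gene Cxcl5 had 706, 809, 655 and 638 CPM at 28 h, against 249, 248, 237 and 256 CPM at 16 h (log2 1.50 ± 0.061), and Il6 rose by 2.10 ± 0.18 to 5.20 ± 0.690 CPM, against 1.20 ± 0.423 CPM at 16 h. Of 17 chemokine and cytokine genes tested 9 rose, 8 of them at least 2-fold, and 4 fell, beside 32.6%, 7.66% and 32.9% of all genes tested. Cxcl12, the stromal chemokine that binds CXCR4, fell by 0.61 ± 0.054 to 27.0 ± 1.26 CPM at 28 h, against 41.1 ± 1.69 CPM at 16 h. In control medium 10 of the 17 chemokine and cytokine genes rose, 8 of them at least 2-fold, and 2 fell. Of 20 NF-kB feedback and adhesion genes 14 rose in CM, 6 of them at least 2-fold, and 1 fell. In control medium 15 rose, 10 of them at least 2-fold, and 1 fell. Among those that rose in CM were the feedback inhibitors Nfkbiz (1.66 ± 0.054), Tnfaip3 (1.30 ± 0.063) and Nfkbia (0.89 ± 0.072). The median difference between the media of this list was -0.18, with 17 of 20 below 0, beside 55.4% of all genes, and the called members were Ptgs2 and Lcn2. The Nfkbia difference, -0.44, was not called (adjusted p = 0.0756) but passed with DESeq2 (0.0119), a replicate block (0.0103), thinned counts (0.0495) or no low-count filter (7.56e-06), and without control 16 h replicate 3, CM 16 h replicate 1 or CM 28 h replicate 4, with a lowest adjusted p of 0.0267 among these libraries.

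Complement and acute-phase genes rose in 12 of 13 cases in CM, 10 of them at least 2-fold, beside 32.6% and 7.66% of all genes tested. In control medium all 13 were called higher, 11 of them at least 2-fold, with a median of 1.92 beside 1.30 in CM. C3, the central complement protein, had 107, 108, 109 and 119 CPM in CM at 28 h, against 7.85, 11.4, 8.20 and 9.73 CPM at 16 h (log2 3.57 ± 0.088). The protease gene C1s1 rose by 1.30 ± 0.046, and Il6ra and Stat3, the receptor subunit and transcription factor of interleukin-6 signalling, by 1.33 ± 0.052 and 1.00 ± 0.045. Cebpd, a factor that drives acute-phase genes, rose by 2.62 ± 0.16. Of 24 interferon and antigen presentation genes 13 rose and 2 fell, among them H2-K1 and Tapbp of class I presentation, by 0.75 ± 0.051 and 0.73 ± 0.049, and Isg15 by 1.13. Markers of immune cells, as a whole list, summed to 29.9 to 33.3 CPM in CM at 28 h and 19.9 to 25.2 CPM in CM at 16 h. Of the 13 markers 2 were tested: the lipopolysaccharide co-receptor gene Cd14, at 29.3 ± 1.47 CPM at 28 h and 20.3 ± 2.39 CPM at 16 h, rose by 0.53 ± 0.069, and Cd68 was -0.10 (adjusted p = 0.587), while in control medium both were called higher. The leukocyte genes Adgre1, Tyrobp and Laptm5 had 0 counts in all libraries and Ptprc had 3. Endothelial markers summed to 27.8 to 31.2 CPM in CM at 28 h and 15.3 to 18.6 CPM in CM at 16 h. Of the 12 markers 4 were tested, of which Flt1 (0.75), Eng (0.77) and Vwf (1.56) rose and Cdh5 was 0.40 (adjusted p = 0.363). Tie1 and Emcn had 0 counts. The part of such cells in these results was not tested.

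Immediate early and growth factor feedback genes were raised in part. Of 28 immediate early genes 17 rose and 5 fell, beside 32.6% higher and 32.9% lower over all genes tested. Ier3, with the largest rise, had 318, 296, 321 and 366 CPM at 28 h, against 58.0, 60.3, 59.5 and 64.1 CPM at 16 h (log2 2.43 ± 0.078). Fosl2, a FOS family member, rose by 1.39 ± 0.047 and Klf6 by 0.56 ± 0.038. Of 15 ERK feedback genes 7 rose and 3 fell. Errfi1, an inhibitor of the EGF receptor that glucocorticoids also raise, rose by 1.50 ± 0.045. In the glucocorticoid-responsive list 11 of 19 genes rose and 2 fell, and Fkbp5, a classical glucocorticoid receptor target, was among those that fell, at 54.9 ± 2.73 CPM at 28 h and 84.8 ± 5.40 CPM at 16 h (-0.63 ± 0.051). Dkk2, a Wnt antagonist, rose by 1.79 ± 0.060 in a Wnt and Notch list where 12 of 18 genes rose and 3 fell. In control medium 18 of the 28 immediate early genes rose and 4 fell, beside 31.5% higher and 31.3% lower over all genes tested there. Of the 19 glucocorticoid-responsive genes 13 rose and 1 fell there.

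Lipid genes rose in part. Of 25 cholesterol synthesis and uptake genes 20 rose, beside 32.6% of all genes, and 3 fell, beside 32.9%. A rise of at least 2-fold was found in 1 of the 25, beside 7.66% of all genes, and the median was 0.35. Hmgcs1, which makes the precursor of mevalonate, had 262, 274, 276 and 252 CPM at 28 h, against 147, 134, 147 and 138 CPM at 16 h (log2 0.91 ± 0.043), and Lss and Insig1 rose by 0.85 ± 0.040 and 0.85 ± 0.046. Among genes of fatty acid synthesis and storage, 12 of 21 rose and 4 fell. Lpin1, the phosphatidate phosphatase, had 57.4, 54.3, 62.4 and 62.0 CPM at 28 h, against 11.6, 9.10, 10.7 and 9.61 CPM at 16 h (log2 2.52 ± 0.072). The desaturase gene Scd2 had 4578, 4446, 4516 and 4407 CPM at 28 h, against 2361, 2296, 2442 and 2347 CPM at 16 h (log2 0.93 ± 0.032), and Acss2 rose by 1.60 ± 0.073. For each of these genes the 28 h and 16 h libraries did not overlap. In the PPAR and fatty acid oxidation list 12 of 19 genes rose and 2 fell, with Acadm at 1.00 ± 0.039. In control medium 20 of the 25 cholesterol genes rose and 3 fell. There 12 of the 21 fatty acid synthesis genes and 11 of the 19 PPAR genes rose, and 5 and 1 fell.

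Genes that starvation and low insulin are known to raise through FoxO factors were mostly higher, 16 of 21 rising and 2 falling, beside 32.6% higher and 32.9% lower over all genes tested. Foxo3 itself had 163, 152, 160.1 and 168 CPM at 28 h, against 54.9, 57.6, 57.8 and 56.7 CPM at 16 h (log2 1.50 ± 0.049), and its targets Fbxo32, a muscle ubiquitin ligase, and Pik3ip1 rose by 1.95 ± 0.084 and 2.24 ± 0.13. Of 30 autophagy and lysosome genes 17 rose and 4 fell, among them Ulk1 (1.18 ± 0.065) and Wipi1 (1.08 ± 0.043), which start autophagosome formation. Respiratory chain genes of the nucleus were lower more often than higher, 20 of 37 falling and 5 rising, with a median of -0.16. Cycs (cytochrome c) fell by 0.67 ± 0.052. Of 12 mitochondrially encoded genes 4 fell, a share near the 32.9% of all genes, and none rose, beside 32.6%; mt-Nd1 was 2860.4 ± 221 CPM at 28 h and 4455 ± 158 CPM at 16 h (-0.64 ± 0.044). In the NRF2 and glutathione list 7 of 28 genes rose and 16 fell, on opposite sides for Nqo1 (-1.27 ± 0.053) and Hmox1 (1.13 ± 0.050). Of 5 metallothionein and zinc genes 1 rose and 2 fell, the rise being that of Mt1 (1.40 ± 0.070). In control medium 15 of the 21 FoxO genes and 18 of the 30 autophagy genes rose, and 2 of each fell.

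**Figure D4:**
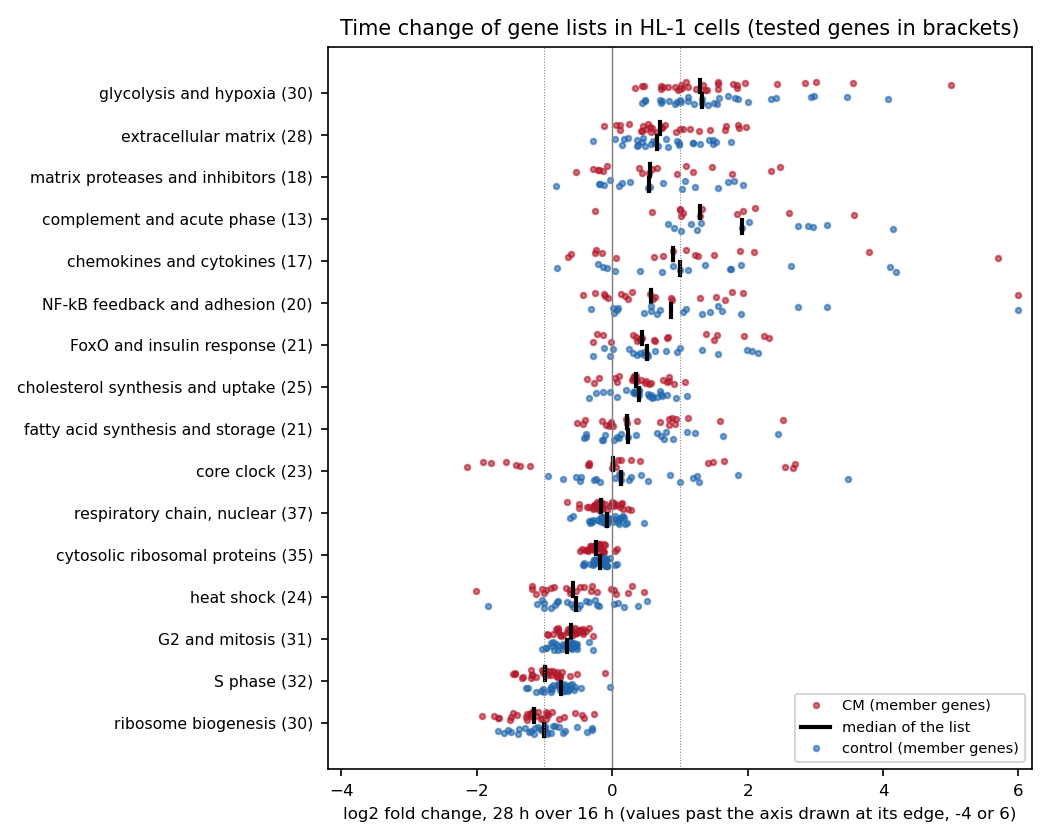
Log2 change (28 h over 16 h, horizontal axis) of each tested member of 16 gene lists in conditioned medium (red, upper row) and control medium (blue, lower row); the black line is the median, dotted lines mark 2-fold, and values past the axis are drawn at its edge. Glycolysis and hypoxia members all lie right of 0, ribosome biogenesis, S phase and G2 and mitosis members left of 0, and clock members on both sides, spread more widely in conditioned medium.

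The heart gene lists held rises and falls, and no common direction is read from their counts. Of the 12 sarcomere and natriuretic peptide genes tested 4 rose and 2 fell, beside 32.6% higher and 32.9% lower over all genes tested. Of the 31 gap junction and calcium handling genes 15 were tested, with 6 rising and 5 falling, and of 15 cardiac transcription factor genes 7 rose and 2 fell. Des, the muscle intermediate filament, had 648, 634, 637 and 727 CPM at 28 h, against 395, 465, 402 and 446 CPM at 16 h (log2 0.63 ± 0.057), and Tnnt2, the thin filament troponin T, rose by 0.26 ± 0.053. The calcium pump gene Atp2a2 fell by 0.40 ± 0.036. The potassium channel gene Kcnj2 had 67.7, 66.7, 67.0 and 68.0 CPM at 28 h, against 37.0, 37.4, 37.3 and 36.7 CPM at 16 h (log2 0.86 ± 0.064). The heart transcription factor Gata4 fell by 0.50 ± 0.087. Of 11 fibroblast and mesenchymal genes 8 rose and 1 fell, and of 8 smooth muscle genes 6 rose and 1, Acta2 (-0.83 ± 0.056), fell, while Notch3 rose by 1.32 ± 0.079. The 2 hepatocyte-list genes that could be tested, Krt19 and Apob, rose by 1.95 ± 0.053 and 0.48 ± 0.13.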

How the data were processed

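The deposited HL-1 table holds whole-number read counts per gene, without normalization. FastQC 0.11.8 and STAR were used by the authors, and mm10 and GRCm38 named as builds, per the submitters' processing notes. Neither the counting tool nor its strand setting or annotation is given in the sources used here; without a known strand setting, overlapping and antisense genes may share reads. Columns of the CM libraries carry the word DEX and were tied to CM by the labels' descriptions. The AML12 table was not used.

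Genes kept by filterByExpr by group (14450 of 55414) were scaled by TMM and fitted with 1 mean per group over all 16 HL-1 libraries, by quasi-likelihood in edgeR 4.0.16 (R 4.3.3). Contrasts were CM 28 h minus 16 h, control 28 h minus 16 h, and their difference, each adjusted over all genes tested. SE is the log2 fold change divided by the root of F. The method was also run on simulated counts in which few genes changed, and only in CM at 28 h. That run does not test it where most genes change, as here. Positions come from GENCODE M21 on GRCm38, which holds 99.7% of the tested IDs, and promoters from RefSeq.

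The libraries and 44 gene lists were chosen with earlier results of these data known. The genes named are called genes with separate groups and at least 1 CPM, the 12 largest rises, 12 largest falls and 6 of smallest p; all tested clock genes; up to 6 of smallest p per list; and 6 differences in each direction. This gave 278 genes, of which a selection is printed; a few are not reported here. Other list members and genes outside this rule serve as examples picked after their values were seen. Alternatives were RLE factors, total counts, DESeq2 1.42.0, voom (limma 3.58.1), dropping the low-count filter, a replicate block, the 8 compared libraries alone, thinning to the lowest total, and leaving out each library. No pair of replicates agreed within sampling noise; chi-square per degree of freedom was at least 2.03.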

Additional observations from a re-analysis of the deposited data

Results flagged for a closer look

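Of 392 groups of 4 libraries examined for the genes named, 18 had 1 library far from the others, which is 4.59%, and chance flags about 1 in 20 groups. In CM at 28 h, replicate 4 stood high for C3 (119 CPM), Cebpd (48.8 CPM), Des (727 CPM) and Lcn2 (2.10 CPM), and replicate 3 for Plat (83.1 CPM) and Ccn2 (13.5 CPM). In CM at 16 h, replicate 2 stood low for Ero1a (174 CPM), Ndrg1 (94.5 CPM), Ccng2 (46.6 CPM) and Tnfaip3 (22.2 CPM) and high for Ccnb1ip1 (3.21 CPM) and Selenbp2 (0.0545 CPM, 1 count). Also in CM at 16 h, replicate 4 was low for Aurka (169 CPM), replicate 1 low for Lcn2 (0.981 CPM), and replicate 3 high for Cirbp (43.9 CPM) and Ccl3 (0.0533 CPM, 1 count). In control medium at 16 h, replicate 4 was low for Cry2 (11.0 CPM) and replicate 1 high for Nos2 (0.0569 CPM, 1 count).

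The time change differed between the media, by the test of the difference itself, for 24 of the genes named. The CM change lay above the control change for Arntl (1.39), Plat (0.76), Tinagl1 (0.66), Dusp27 (0.56), Spon2 (0.52), Plau (0.50), Thbs2 (0.43) and Lox (0.33). It lay below for Lcn2 (-2.99), Serpina3n (-2.29), Per2 (-1.66), Per3 (-1.49), Dbp (-1.25), Tef (-1.11), Cry1 (-0.95), Ccl7 (-0.70), Coq10b (-0.70), Nr1d2 (-0.69), Ccl2 (-0.68), Cry2 (-0.58), Cxcl1 (-0.53), Wee1 (-0.52), Ptgs2 (-0.52) and Pdxk (-0.51), all on the log2 scale.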

How the results depend on the processing

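The count of genes called in CM was between 9240 and 9589 under the alternatives, and between 8968 and 9208 when 1 library was left out. In control medium these ranges were 8829 to 9081 and 8596 to 8888. The 40 called differences between the media became 97 without the low-count filter and 68 with DESeq2, of which 38 were among the 40; for the other 2, Lcn2 and Serpina3n, DESeq2 gave no adjusted p. Leaving out 1 library gave 32 to 55. The causes were not tested. Same-numbered CM libraries correlated in their deviations at -0.024 to 0.082, and differently numbered ones at -0.127 to 0.154. For control libraries these ranges were 0.017 to 0.037 and -0.048 to 0.023. Such small values do not decide whether replicate numbers paired the libraries. With a replicate block the calls were 9483, 9081 and 49. No result changed direction among called values. Of 166 genes examined one by one and called in CM, 165 stayed called without any 1 library, Csnk1d being the exception; of the 24 called differences 20 did, with Cry2, Dusp27, Pdxk and Tinagl1 as exceptions. Limma-voom and thinning each ended the Cry2 difference as well (adjusted p = 0.0564 and 0.168), thinning that of Dusp27 (0.0636). Genes under about 1 CPM rest on few counts, and their fold changes are limited by depth.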

Other observations

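Gene families outside the lists above were gathered by symbol and described by counts alone. Genes of like symbol are thus counted as members, such as the antisense gene Polr1has, the pseudogene Mrpl27-ps and the receptor antagonist gene Il1rn. The examples were chosen after their values were seen. Several families had more members called lower at 28 h in CM than the 32.9% of all genes tested. All 8 subunits of the CCT chaperonin, which folds actin and tubulin, fell (median -0.50), as did 32 of 36 proteasome subunits (-0.37), 16 of 20 cytosolic tRNA synthetases (-0.31) and 63 of 80 mitochondrial ribosomal proteins (-0.40). Of 19 nucleoporins, which form the nuclear pore, 18 fell (-0.59), and of 18 subunits of RNA polymerases I and III 15 fell and 1 rose. Of 48 DEAD and DEAH box helicases 35 fell and 8 rose. Rises were 2 in the proteasome, 2 among the synthetases and 2 among the mitochondrial ribosomal proteins.

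Other families had more members called higher than the 32.6% of all genes tested. Of 26 collagens 21 rose and none fell, 11 rising at least 2-fold (median 0.86), and their summed level was 7714 to 9079 CPM in CM at 28 h and 4788 to 5286 CPM in CM at 16 h. Of 11 genes with symbols of the prolyl and lysyl hydroxylases that modify collagen, P4hb and P3h4 among them, 10 rose (median 0.61). Of 17 genes of the Jumonji family, with Kdm or Jmjd symbols and not all histone demethylases, 15 rose and 2 fell (median 0.35). Of 19 integrins 14 rose and 2 fell, and of 17 semaphorins 11 rose and 2 fell. Interleukin receptors rose in 8 of 20 cases and fell in 1, and ephrins and their receptors rose in 6 of 17 and fell in 4, shares of rises nearer to that of all genes. The solute carriers, with 73 of 194 higher and 67 lower, and the nuclear receptors, with 5 of 15 higher and 4 lower, had no common direction. Of 24 replication-dependent histone genes listed, only 8 had their symbol in the deposited counts. Of these 5 were testable, and 3 rose.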
